A study of Mus musculus with 35 samples.

Results

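Nostrin, Myo7a, Ramp2, Hesx1 and Clic5 were, among genes whose control and knockdown libraries did not overlap, the 5 most lowered by Oct4 siRNA in GATA6-induced mouse ES cells, out of the 6275 genes of the siRNA table and the 44853 genes of the induction table. They were chosen by name from that knockdown contrast, so that their values under Oct4 siRNA describe the choice and no test is read from them. Their behaviour in the induction series comes from other libraries. The siRNA table, however, holds only genes for which the authors saw a GATA6 response in those same libraries, so that some response was given, and only its direction, timing and size are read. The choice also asked for a mean of at least 5 TPM in an siRNA group, and all of these were sampled at 48 h of Dox. Expression at 48 h was therefore partly given as well. All 5 were found in both tables and passed the filter on low values in each.

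The study comprised 35 RNA-seq libraries. KH2 ES cells (C57BL/6 x 129/Sv) carrying a doxycycline (Dox) inducible Gata6 cassette were sampled untreated (0 h) and after 16, 24, 48, 72, 96 and 168 h in Dox at 1 µg/mL, with 3 libraries per time. X10 XEN cells, a wild-type extra-embryonic endoderm line of CD1 genotype grown without LIF and not treated with Dox, gave 2 libraries, so that line, strain and cell state cannot be told apart in any comparison with them. The siRNA series held 6 libraries with a pool of non-targeting siRNAs (siCTL) and 6 with a pool against Oct4 (siOct4), all of the same inducible line, from a single clone, nucleofected, plated in Dox at 1 µg/mL and collected after 48 h. Values are TPM, the share of a gene among the transcripts of its library on a fixed scale. TPM keeps no record of reads, so the depth is unknown, and the bulk libraries cannot tell fewer expressing cells from less RNA per cell.

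As background, GATA6 is the factor that drives primitive endoderm (PrE), the extra-embryonic lineage that lines the blastocyst cavity and later forms visceral and parietal endoderm. Visceral endoderm is a tissue of uptake with a brush border of microvilli. OCT4, the product of Pou5f1, is best known for maintaining pluripotency, and it is also present when PrE is first specified. The 5 genes have no common textbook function. NOSTRIN is an F-BAR protein that binds endothelial nitric oxide synthase and helps membranes curve inwards. MYO7A is an unconventional myosin of actin bundles in hair cells and microvilli. CLIC5 is a chloride intracellular channel family protein of stereocilia and podocytes that works with ezrin. RAMP2 is the membrane partner that turns the calcitonin receptor-like receptor into a receptor for adrenomedullin. HESX1 is a homeobox repressor of early anterior patterning that is also found in ES cells.

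The 5 genes lie on different chromosomes. In mm10 (GRCm38), Nostrin spans chromosome 2, 69135800 to 69189330 (plus strand), Myo7a chromosome 7, 98051060 to 98119524 (minus strand), Ramp2 chromosome 11, 101246028 to 101259546 (plus strand), Hesx1 chromosome 14, 26994416 to 27002329 (plus strand) and Clic5 chromosome 17, 44188584 to 44280172 (plus strand). Each is annotated as protein coding. The span of Ramp2 overlaps Vps25 (101253707 to 101259549) on the same strand, so that reads of the shared stretch could be assigned to either gene. Vps25 averaged 103.4 TPM in untreated cells, 148.1 TPM at 48 h and 149.2 TPM in XEN cells, and its part in the values of Ramp2 was not tested.

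The 250 bases before the RefSeq start are shown for Nostrin, which was among the earliest to respond, and for Hesx1, which fell furthest between 48 and 168 h, because all 5 genes rose over the step from 24 to 48 h. Both are from RefSeq on GRCm38.p6, plus strand, Nostrin at chr2:69135550-69135799 and Hesx1 at chr14:27000112-27000361. The Hesx1 start used by RefSeq is a transcript start 5946 bases inside the annotated gene span, so its window is not at the 5′ end of that span. Capitals mark the octamer-like word described beneath them.
Nostrin: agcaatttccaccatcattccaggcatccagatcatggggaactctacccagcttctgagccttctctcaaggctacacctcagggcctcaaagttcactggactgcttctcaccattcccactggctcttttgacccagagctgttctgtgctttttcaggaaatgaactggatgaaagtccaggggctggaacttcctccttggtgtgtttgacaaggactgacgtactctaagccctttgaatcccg
Hesx1: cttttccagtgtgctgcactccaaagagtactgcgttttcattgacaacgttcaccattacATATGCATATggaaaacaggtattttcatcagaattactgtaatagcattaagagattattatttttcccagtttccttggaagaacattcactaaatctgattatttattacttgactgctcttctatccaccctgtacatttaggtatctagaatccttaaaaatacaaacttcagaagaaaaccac
RefSeq promoters, 250 bases before to 50 after a start, were matched for 4 of the 5 genes; Ramp2 was the gene without an entry. The GATA motif was searched as AGATAA, with its forms spelled AGATAG, then with TGATAA or lastly with TGATAG, the POU octamer was searched as ATGCAAAT, and the SOX motif was searched as ACAATG or otherwise as ACAAAG. None of these was present on either strand of the listed windows of Nostrin, Myo7a, which has 2 of them, Hesx1 or Clic5. The words were settled with the sequences in view. An octamer-like word, ATGCATAT, was picked from the Hesx1 window itself, where it lies on both strands in overlap (the capitals) and which no window of the others held, and 0.8% of all promoters of that length held it. Nothing is read from its presence there. A SOX word searched first, ACAATA, was in none of these windows and in 9.1% of all promoters. Of the 32851 mouse promoters of that length, 29.8% held a GATA word, 1.7% the octamer and 28.6% ACAATG or ACAAAG. The windows differed in base composition, from 33.7% G and C for Hesx1 to 62.0% for Myo7a, with 51.0% for Nostrin and 54.3% for Clic5.

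The knockdown was examined first. Pou5f1 ranged from 781.8 to 1194 TPM (median 895.5) in the 6 siCTL libraries and from 281.6 to 386.6 TPM (median 313.9) in the 6 siOct4 libraries, without overlap. It fell by 1.52 on the log2(TPM + 1) scale (SE 0.14, limma adjusted p = 5.21e-05), lower in 6 of 6 pairs of the same number. Gata6, which counts both transgene and endogenous transcripts, ranged from 92.6 to 198.5 TPM (median 110.4) in siCTL and from 51.2 to 130.2 TPM (median 88.1) in siOct4, with overlap. Its log2 difference of -0.50 (SE 0.22, limma adjusted p = 0.326) did not pass the test, although the siOct4 library was lower in 6 of 6 pairs, with 45.7% to 96.6% of the paired siCTL level. In limma with libraries of the same number paired, the SE was 0.14 and the adjusted p 0.0503, just over the threshold. The paper reports lower endogenous Gata6 upon Oct4 knockdown, measured by an untranslated region that the transgene lacks.

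Over all 6264 genes tested in the siRNA series, 1.72% were called lower and 0.942% higher with siOct4 (limma adjusted p under 0.05 and a log2 change above 0.5), or 6.15% and 2.43% with the replicate block that pairs libraries of the same number. Every siOct4 library lay below every siCTL library in 1.82% of the genes tested. The 5 genes met both conditions, which is how they were selected, and nothing is read from it.

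Nostrin ranged from 78.5 to 194.8 TPM (median 124.6) in siCTL and from 14.9 to 49.3 TPM (median 29.4) in siOct4. The paired siOct4 libraries held 18.7% to 25.8% of the siCTL level, the narrowest range of the 5. Its siCTL levels went with consecutive libraries: 79.6 and 78.5 TPM in libraries 1 and 2, 194.8 and 174 TPM in 3 and 4, and 119.7 and 129.5 TPM in 5 and 6. Nothing is read from the spread of the fraction left.

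Myo7a ranged from 31.6 to 81.2 TPM (median 42.4) in siCTL and from 5.38 to 15.2 TPM (median 10.9) in siOct4. Between 10.2% and 39.4% of the paired siCTL level was left, the widest range of the 5. The highest siCTL value and the lowest fraction left both belonged to pair 4.

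Ramp2 ranged from 15.0 to 43.5 TPM (median 19.2) in siCTL and from 2.29 to 6.67 TPM (median 5.48) in siOct4. Hesx1 ranged from 10.6 to 29.6 TPM (median 22.8) in siCTL and from 2.83 to 7.08 TPM (median 4.44) in siOct4. Clic5 ranged from 5.74 to 21.3 TPM (median 11.4) in siCTL and from 1.42 to 3.79 TPM (median 2.26) in siOct4. In each of these genes the lowest control library stayed above the highest knockdown library, and 6 of 6 pairs were lower.

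The 5 genes followed one another in the order of falls that gave the choice. Similar ratios of group means, and larger falls than those of Pou5f1 and Gata6, came with that order. Nothing is read from either. The siOct4 mean was 23.4% of the siCTL mean for Nostrin, 22.9% for Myo7a, 22.7% for Hesx1, 21.1% for Ramp2 and 20.2% for Clic5, against 34.6% for Pou5f1 itself and 70.9% for Gata6. On the log2(TPM + 1) scale the mean paired differences were -2.11 ± 0.18 for Nostrin, -2.02 ± 0.68 for Myo7a, -1.98 ± 0.50 for Ramp2, -1.88 ± 0.32 for Hesx1 and -1.86 ± 0.52 for Clic5 (SD, n = 6 pairs). The sizes of the falls in the 5 genes overlapped within the spread between pairs.

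**Figure D1:**
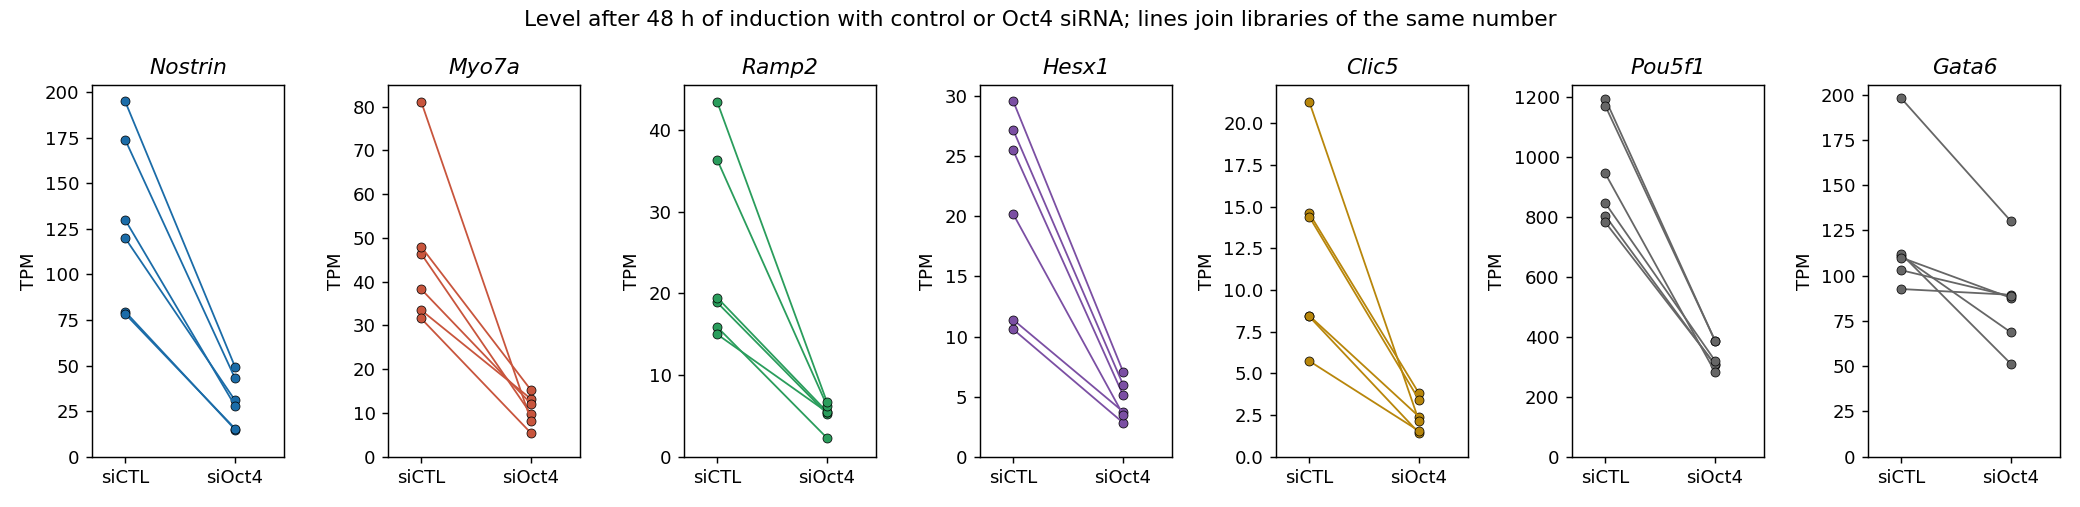
TPM (y axis, from 0) in the siCTL and siOct4 libraries after 48 h of induction for the 5 genes and for Pou5f1 and Gata6; each line joins libraries of the same replicate number. The 6 lines of each of the 5 genes fall without overlap between the groups, whereas the Gata6 values of 92.6 to 198.5 and 51.2 to 130.2 TPM overlap.

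The choice has an edge on either side. Cubn, which encodes the endocytic receptor cubilin, fell further, from a mean of 353.4 to 63.0 TPM (log2 change -2.55), but its groups overlapped, the lowest siCTL library at 122.2 TPM lying under the highest siOct4 library at 125.5 TPM. Clic5 was the last gene inside. Just outside, with -1.79, -1.75, -1.70 and -1.69 on the log2 scale, lay Cyp4f14, a cytochrome P450, which overlapped and was not called, then Creb3l1, a transcription factor of the secretory pathway, Lrrk1, a kinase, and AA986860, all 3 of which met every criterion. These values are a description of the order and were not tested.

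Several properties of the libraries moved in the siRNA series. The dependence of values on gene length differed between libraries, from -0.21 (siCTL 3) to 0.19 (siCTL 4) log2 units per doubling of exonic length in siCTL and from -0.17 (siOct4 3) to 0.09 (siOct4 5) in siOct4. With this trend removed, the differences of the 5 genes were -2.07 for Nostrin, -1.88 for Ramp2, -1.87 for Myo7a, -1.86 for Hesx1 and -1.71 for Clic5, an alternative chosen after seeing the data. Over 16 alternatives, which include the omission of each pair, the differences stayed between -2.22 and -1.67. The block, the filters, the thresholds and the averaging could not move them, since they leave the group means of these genes unchanged. The genes were chosen on this contrast, so nothing is read from that range. The summed level of the 6 fibroblast markers in the table, a sign of feeder cells, ranged from 31.1 to 217.1 TPM in siCTL and from 32.9 to 219.1 TPM in siOct4, so that the groups overlapped throughout. The summed level of 11 genes of a PrE list ranged from 2664 to 4878 TPM in siCTL and from 1211 to 1981 TPM in siOct4 without overlap. Abundant genes weigh most in such a sum, and not every gene of the list fell. In limma, 9 of the 11 were lower at an unadjusted p under 0.05, whereas Sox17 (log2 change -0.03, SE 0.23) and Foxa2 (0.06, SE 0.23) were little changed. That list holds transcription factors and markers such as Srgn, Dab2 and Pdgfra, and its Gata6 value includes the transgene. The sum over 9 pluripotency factors ranged from 1175 to 1844 TPM in siCTL and from 455.6 to 801.3 TPM in siOct4. Pou5f1, the target of the siRNA, was much of that sum, with means of 956.8 and 331.1 TPM. It was the only gene of the 9 called lower in limma without the block. The part of these library properties and sums in the falls of the 5 genes was not tested.

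The induction series then showed when these genes changed after Dox was added. It held no untreated cells of the later times and no Dox-treated cells without the cassette. GATA6, Dox itself and time in culture can therefore not be told apart in it. All 5 rose by 48 h, all 5 rose steeply between 24 and 48 h, and they divided afterwards: Hesx1, Myo7a and Clic5 were lower again at 168 h than at 48 h, Nostrin was not called different from 48 h, and Ramp2 was high to the end and in XEN cells. Summed PrE factors rose from between 97.96 and 111.5 TPM at 0 h to between 4174 and 4811 TPM at 168 h, and summed pluripotency factors fell from between 3284 and 3557 TPM to between 372.8 and 507.1 TPM. Gata6 itself went from 0.264 ± 0.098 TPM at 0 h to 133.8 ± 4.6 TPM at 16 h (SD, n = 3).

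Nostrin was listed at 0, 0.0102 and 0 TPM in the 3 libraries at 0 h. It reached 1.98, 2.68 and 4.58 TPM at 16 h, 11.1, 10.3 and 7.57 TPM at 24 h and 77.6, 85.7 and 85.7 TPM at 48 h. From 0 h to 48 h the libraries of no time overlapped those of the next.

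Nostrin went on to 141.8, 147.7 and 159.8 TPM at 72 h and 137.8, 141.0 and 176.6 TPM at 96 h, and these times overlapped. It stood at 62.5, 67.0 and 74.0 TPM at 168 h, below every 48 h library, and at 0.506 and 0.415 TPM in XEN cells. The gene thus had its highest mean, 151.8 ± 21.5 TPM (SD, n = 3), at 96 h and was almost absent from the XEN line.

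Ramp2 was at 0.975, 0.812 and 0.507 TPM at 0 h, 4.92, 3.38 and 4.87 TPM at 16 h, 7.14, 7.76 and 5.04 TPM at 24 h and 22.7, 26.4 and 29.3 TPM at 48 h. Like Nostrin it was above 0 h in every library by 16 h. At 72 h the libraries held 56.3, 55.0 and 17.6 TPM. The third library of that time stood apart in general, with 762 of 15057 genes lying more than 1 log2 unit outside the other two, against 81 and 70 for the others. Without it the log2 change of Ramp2 from 0 h to 72 h was 5.01 in place of 4.48. Ramp2 then measured 28.0, 26.1 and 28.6 TPM at 96 h, 39.3, 42.4 and 39.8 TPM at 168 h and 46.4 and 53.0 TPM in XEN cells. Its highest mean was in XEN cells, 49.7 ± 4.7 TPM (SD, n = 2), above every 168 h library. That order rests on the third 72 h library, since the other two of that time lay above both XEN libraries.

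Clic5 was near absent at 0.0305, 0.0203 and 0.0507 TPM at 0 h and 0.132, 0.0304 and 0.0913 TPM at 16 h, with overlap. It was at 0.527, 0.659 and 0.223 TPM at 24 h and 11.5, 11.7 and 8.86 TPM at 48 h. The ratio of the 48 h to the 24 h mean was 22.8, the largest of the 5 genes, but it rests on a 24 h mean of 0.470 TPM. On the log2(TPM + 1) scale the step was like that of Nostrin (3.0 and 2.99). It measured 15.9, 17.3 and 19.4 TPM at 72 h and 17.9, 17.6 and 24.3 TPM at 96 h. At 168 h it had come down to 3.79, 4.86 and 4.78 TPM, and XEN cells held 2.27 and 1.93 TPM, so that every later library stayed above those of 24 h.

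Myo7a was already expressed at 0 h, at 6.38, 8.60 and 10.2 TPM, and was little different at 16 h, 7.04, 8.0 and 7.77 TPM, and at 24 h, 6.69, 6.88 and 10.8 TPM. These 3 times overlapped. At 48 h it was at 40.4, 47.8 and 39.6 TPM, at 72 h at 89.3, 89.1 and 65.1 TPM and at 96 h at 65.1, 58.1 and 100.8 TPM. It then dropped to 14.4, 17.7 and 21.5 TPM at 168 h and to 0.0202 and 0.212 TPM in XEN cells, below its level in untreated ES cells.

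Hesx1 started at 2.51, 3.97 and 4.02 TPM, with 3.75, 2.71 and 3.86 TPM at 16 h and 5.45, 3.56 and 4.48 TPM at 24 h, all overlapping. It was at 23.6, 24.6 and 17.6 TPM at 48 h and 24.7, 27.8 and 21.6 TPM at 72 h, which overlapped, and had passed its highest mean by 96 h with 14.9, 17.1 and 16.5 TPM. At 168 h it was at 2.34, 2.12 and 1.06 TPM, below every untreated library, and it was listed at 0 in both XEN libraries.

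**Figure D2:**
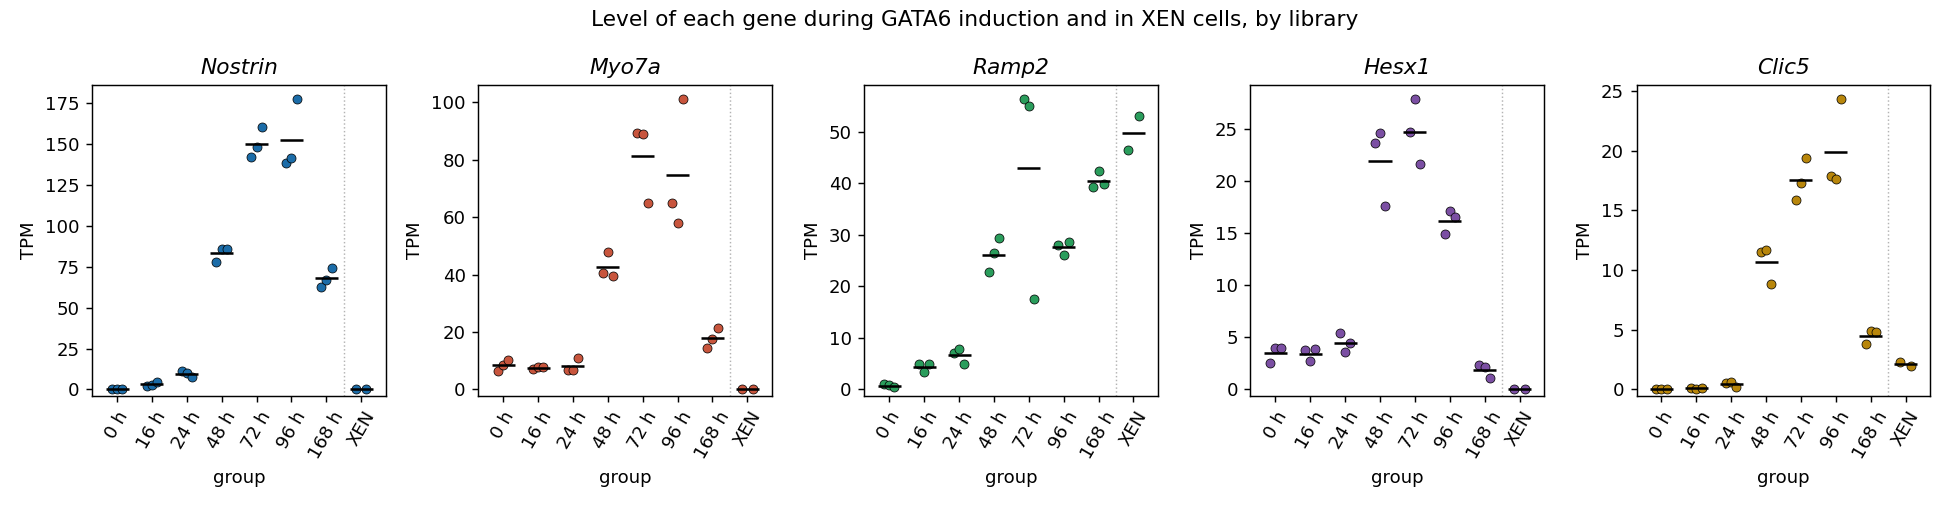
TPM (y axis, a scale for each gene) in each library of the induction series by hours of Dox and in XEN cells; points are libraries (3 per time, 2 for XEN cells) and bars are group means. Between 24 and 48 h every gene steps up, and Nostrin, Myo7a, Hesx1 and Clic5 are far below their highest mean at 168 h and in XEN cells, where Ramp2 has its highest mean, 49.7 TPM, with the low 72 h library of 17.6 TPM included.

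Tested against 0 h with limma over 15057 genes (adjusted p under 0.05 and a log2 change above 1), 2 of the 5 genes were called higher at 16 h, where 1.97% of all genes were, and 2 of 5 at 24 h, where 3.24% were. At 16 h these were Nostrin (log2 change 1.97, SE 0.17, adjusted p = 7.66e-08) and Ramp2 (1.61, SE 0.29, adjusted p = 5.97e-04). The call of Ramp2 at 16 h was lost without replicate 1, with a log2 change of 1.62. At 24 h they were again Nostrin (3.39, SE 0.17) and Ramp2 (2.11, SE 0.29). Clic5, at 0.50 (SE 0.14, adjusted p = 0.014), fell short of the fold minimum at 24 h and passed it with a pseudocount of 0.1 (2.01).

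At 48 h all 5 were called higher than at 0 h, against 9.14% of all genes called higher and 7.26% lower. These shares are over all genes tested, whereas the 5 came from GATA6-responsive genes expressed at 48 h of Dox. A rise by 48 h was thus partly given by the choice. The log2 changes were 6.39 for Nostrin (SE 0.17, adjusted p = 7.26e-16), 3.94 for Ramp2 (SE 0.29, adjusted p = 1.05e-09), 3.49 for Clic5 (SE 0.14, adjusted p = 4.09e-13), 2.35 for Hesx1 (SE 0.19, adjusted p = 4.79e-09) and 2.23 for Myo7a (SE 0.21, adjusted p = 3.59e-08). The 5 genes were also called at 72 h, where 14.7% of all genes were higher, and at 96 h, where 15.4% were. At 168 h, where 22.6% of all genes were higher, 4 of the 5 were, and Hesx1 was at -0.67 (SE 0.19). Myo7a passed at 168 h by a narrow margin (1.01, SE 0.21, adjusted p = 2.40e-04) and lost its call after median-of-ratios rescaling (0.84) and without replicate 1 (0.98).

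The step from 24 to 48 h, compared because of the group means just described, was shared by all 5 genes, against 3.12% of all genes called higher. In the siRNA series, from which the 5 were chosen, 452 of the 6259 other genes tested were called higher over this step. It amounted to 3.0 for Clic5 (SE 0.14), 2.99 for Nostrin (SE 0.17), 2.28 for Myo7a (SE 0.21), 2.06 for Hesx1 (SE 0.19) and 1.84 for Ramp2 (SE 0.29) on the log2 scale, with adjusted p-values from 2.08e-10 to 5.97e-05. Gata6 changed by 0.25 (SE 0.09) and Pou5f1 by -0.09 (SE 0.25) in the same interval, neither past the threshold. Among the other genes called higher over this step and tested in the siRNA series, 452 in number, the median change with siOct4 was -0.36, and 49 of them (10.8%) were called lower with siOct4 and 9 higher. Over all 6259 tested genes other than the 5, the median was -0.12, with 103 (1.65%) called lower and 59 higher. With the replicate block the calls were 129 lower (28.5%) and 19 higher of the 452, beside 380 (6.07%) and 152 of all. Without pair 1, 2, 4, 5 or 6 between 19 and 24 of the 452 were lower, beside 34 to 41 of all, and with consecutive libraries averaged 0 of either. With both the averaging and the block, 66 of the 452 (14.6%) were lower and 10 higher, beside 149 (2.38%) and 71 of 6256.

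After 48 h the genes parted. At 168 h 3 of the 5 were called lower than at 48 h, against 9.19% of all genes: Hesx1 (-3.03, SE 0.19, adjusted p = 1.01e-10), Myo7a (-1.22, SE 0.21, adjusted p = 4.80e-05) and Clic5 (-1.09, SE 0.14, adjusted p = 2.11e-06), the last of which lost its call without replicate 1 (-0.95). Nostrin (-0.29, SE 0.17, adjusted p = 0.138) and Ramp2 (0.62, SE 0.29, adjusted p = 0.0655) did not pass. Set against the 96 h libraries, every 168 h library was lower for Nostrin, Myo7a, Hesx1 and Clic5, 4 of the 5 genes, against 21.2% of all genes, and every one was higher for Ramp2.

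In XEN cells against 0 h, 2 of the 5 genes were called higher, where 18.9% of all genes were, and 2 were called lower, where 18.7% were. Ramp2 (4.85, SE 0.32, adjusted p = 7.31e-11) and Clic5 (1.58, SE 0.16, adjusted p = 4.03e-08) were higher. Myo7a was lower (-3.06, SE 0.23, adjusted p = 6.76e-10), as was Hesx1, for which no fold is given since it was listed at 0. Nostrin, at 0.54 (SE 0.19, adjusted p = 0.0147), did not reach the fold minimum. Against 168 h, 3 of the 5 were called lower in XEN cells, where 9.17% of all genes were: Nostrin (-5.56, SE 0.19, adjusted p = 2.32e-14), Myo7a (-4.07, SE 0.23, adjusted p = 7.23e-11) and Hesx1. Clic5 (-0.82, SE 0.16) and Ramp2 (0.29, SE 0.32, adjusted p = 0.49) were not called. The summed level of 14 fibroblast markers was 407.9 and 414.0 TPM in the XEN libraries, above the 109.3 to 245.8 TPM at 0 h, and 3 of the 13 tested were called higher, Acta2 (2.06, SE 0.66), Tagln (1.37, SE 0.56) and Col1a1 (1.07, SE 0.35). Their part in the XEN differences was not tested.

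**Figure D3:**
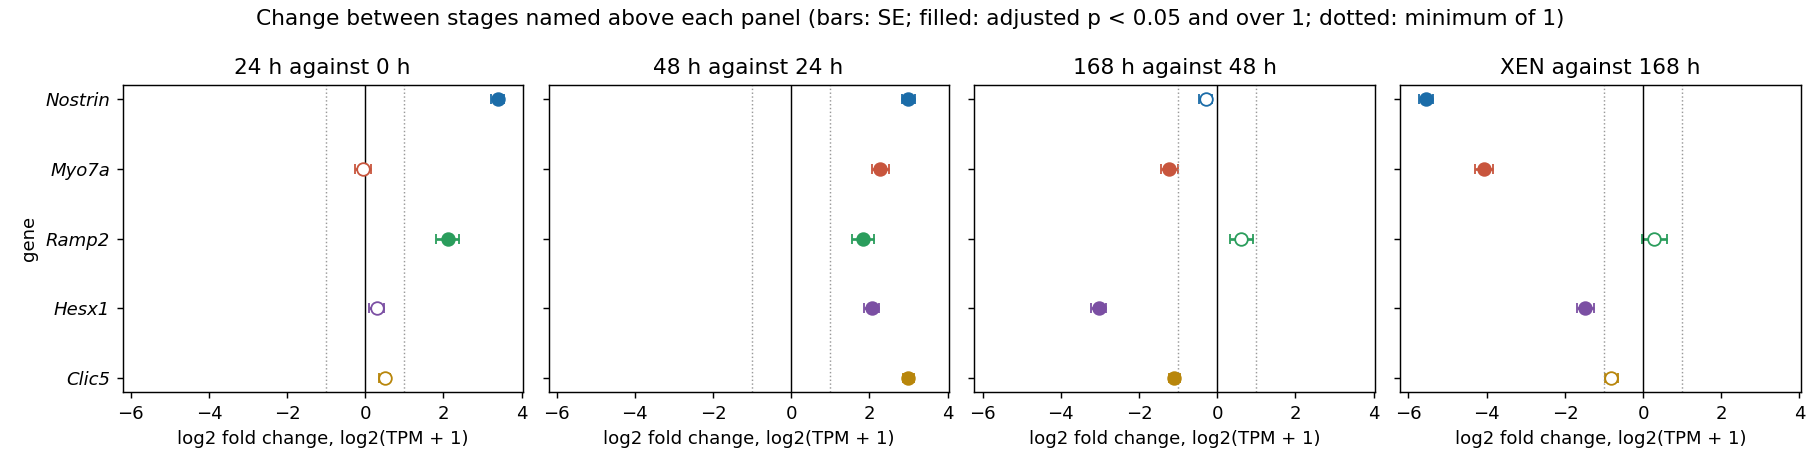
Difference on the log2(TPM + 1) scale (x axis) for each gene (y axis) between 24 and 0 h, 48 and 24 h, 168 and 48 h, and XEN cells and 168 h, one panel each, with SE from limma; filled points passed adjusted p under 0.05 and a change above 1. The 5 points of 48 h against 24 h lie between 1.84 and 3.0, whereas the panels of 168 h and XEN cells spread from 0.62 for Ramp2 to -5.56 for Nostrin.

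The levels of Pou5f1 over the same libraries are given for comparison. Untreated cells held 1654 ± 155 TPM (SD, n = 3). The mean was 1170 ± 41 TPM by 48 h, 500.1 ± 89.3 TPM by 96 h and 63.4 ± 42.1 TPM by 168 h (SD, n = 3), and it measured 0.354 and 0.0506 TPM in the XEN libraries. Whether its decline bears on that of Hesx1, Myo7a, Nostrin and Clic5 was not tested. The 2 tables were normalised separately and are not tested against each other. Set side by side, the siOct4 mean of Myo7a (10.6 TPM) stood near its 0, 16 and 24 h means (8.40, 7.60 and 8.11 TPM). That of Hesx1 (4.72 TPM) did so too (3.50, 3.44 and 4.50 TPM), and these times overlapped in both genes. Ramp2 (5.24 TPM) stood between its 16 and 24 h means (4.39 and 6.65 TPM). Nostrin (30.2 TPM) and Clic5 (2.45 TPM) stood between the 24 h means (9.66 and 0.470 TPM) and the 48 h means (83.0 and 10.7 TPM). The siCTL mean was 129.4 TPM for Nostrin, 46.5 for Myo7a, 24.9 for Ramp2, 20.7 for Hesx1 and 12.2 for Clic5. The 48 h means of Myo7a, Ramp2 and Hesx1 were 42.6, 26.1 and 21.9 TPM. No stage is read from these values.

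Among themselves, the 5 genes were not a single pattern. Over the 23 induction libraries, which share groups and therefore most of their variation, Pearson correlations of log2(TPM + 1) ran from 0.90 between Myo7a and Hesx1 and 0.89 between Nostrin and Clic5 to 0.31 between Myo7a and Ramp2 and 0.19 between Ramp2 and Hesx1. The genes closest to each were sought among tested genes whose group means spanned at least 2 log2 units. Nostrin was closest to Pgm2 (r = 0.98), F2r, a thrombin receptor (0.97), and Barx1 (0.97). Myo7a was closest to Gm10134 (0.97), Sntb1 (0.97) and Prkcz (0.97), Ramp2 to the water channel gene Aqp8 (0.98), Fabp3 (0.98) and Tmem98 (0.97), and Hesx1 to Tmem102 (0.96), Tmem82 (0.95) and Prkcz (0.94). Clic5 was closest to its own family member Clic3 (0.98), then to 2810459M11Rik (0.96) and Snx1 (0.96).

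The genes closest in pattern differed among themselves in their response to siOct4. Of these 14 distinct genes, 4 were called lower with siOct4 and 0 higher (limma; 8 lower and 1 higher, Fabp3, with the replicate block). In limma without the block, F2r fell from a mean of 136.2 to 51.3 TPM (log2 change -1.35, adjusted p = 0.0024), 2810459M11Rik from 5.02 to 1.04 TPM (-1.58, adjusted p = 0.0133), Gm10134 from 5.0 to 1.30 TPM (-1.32, adjusted p = 0.0114) and Pgm2 from 77.4 to 53.1 TPM (-0.53, adjusted p = 0.0486). Without pair 1, 2, 4, 5 or 6 between 1 and 3 of the 14 were called, F2r in each case, and with consecutive libraries averaged 0 were. Pgm2 lost its call in every one of these, 2810459M11Rik without pair 1, 2 or 4 and Gm10134 without pair 4 or 6. With both the averaging and the block, 4 of the 14 were lower (2810459M11Rik, Aqp8, F2r and Gm10134) and 1 higher, Fabp3. Clic3 measured 12.5 TPM with siCTL and 11.3 TPM with siOct4 (log2 difference -0.02, adjusted p = 0.993), beside 12.2 and 2.45 TPM for Clic5.

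The partners of each gene were examined from lists written with earlier results of these data known. RAMP2 acts only with a receptor, and of 12 other genes of the calcitonin receptor system, which include receptors, peptides and the other RAMPs, 6 passed the filter on low values. At 48 h limma called 0 of them higher, also 0 at an unadjusted p under 0.05, and 2 lower, Calca, encoding calcitonin and CGRP (-2.85, SE 0.18), and Adm2, an adrenomedullin-like peptide (-1.15, SE 0.17), of which 1 call was left without replicate 2. The receptor gene Calcrl averaged 0.565 TPM in untreated cells and 0.0812 TPM at 48 h. By 168 h it was at 0.589 TPM and in XEN cells at 0.890 TPM, while means of the ligand gene Adm over the same groups were 1.59, 1.11, 16.4 and 1.65 TPM. Ramp2 thus rose at 48 h while Calcrl was near 0 in these libraries. Levels of other receptor genes are not given here.

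Around Clic5, 9 of 20 measured genes of the CLIC family, the ezrin group and microvillus actin were called higher at 48 h, with a list median of 0.79 beside 0.00 over all genes tested. They included Podxl, a sialomucin that binds the ezrin adaptors (4.62, SE 0.09), Clic6 (3.49, SE 0.57), Clic3 (3.01, SE 0.24) and Clic1 (2.38, SE 0.10). With siOct4, 1 of 15 was called lower, 2 with the block: Eps8, an actin capping protein of microvilli (-1.31, SE 0.30, adjusted p = 0.0335). That call was lost without pair 1, 2, 4, 5 or 6 and with consecutive libraries averaged. With both the averaging and the block, 1 gene of the list was lower. Of 9 measured MyTH4 myosins and Usher or brush border partners, 2 were higher at 48 h, Myo6 (3.37, SE 0.32) and Myo1d (1.06, SE 0.12), and 3 lower, Myo10, Adgrv1 and Calml4 (-1.72 to -1.63). With siOct4, limma called 0 of 8 of them, or 1 lower with the block, and 1 was at an unadjusted p under 0.05.

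Of 23 measured F-BAR genes and nitric oxide synthase partners, 1 was higher at 48 h, Srgap1 (1.20, SE 0.12), and 1 lower, Fnbp1 (-1.21, SE 0.18), or 2 lower without replicate 2 or replicate 3. Nos3, the enzyme that NOSTRIN is named for, averaged 2.05 TPM in untreated cells, 1.08 TPM at 48 h and, by 168 h, 0.0879 TPM. Since Nostrin and Ramp2 are known from endothelium, its markers were measured: of 9 tested, 2 were higher at 48 h, Cdh5 (1.86, SE 0.30) and Esam (1.30, SE 0.22), and 3 lower, Vwf, Pecam1 and Tek (-2.05 to -1.40). The other 5 of the 14 listed stayed under a group mean of 1 TPM throughout. The sum over the 14 was between 41.7 and 48.3 TPM at 0 h and between 21.2 and 24.1 TPM at 48 h, then between 54.8 and 97.7 TPM at 168 h and 92.4 and 98.2 TPM in XEN cells. In XEN cells against 0 h, 3 of the 9 were higher, Cdh5 (5.14, SE 0.34), Flt1 (3.92, SE 0.13) and Tek (3.21, SE 0.22), and 3 lower, Pecam1, Plvap and Nos3 (-4.51 to -1.60). The part of these markers in the values of Nostrin and Ramp2 was not tested. With siOct4, Cdh5 (-1.02, adjusted p = 0.027) and Esam (-1.03, adjusted p = 0.0437) were called lower, 2 of the 5 markers in the siRNA table. Of these 2 calls 0 were left without pair 1, 2, 4 or 6, at a filter of 5 TPM or with consecutive libraries averaged, and 1 without pair 5. With both the averaging and the block, 2 of these markers were lower.

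Of 14 measured HESX1 partners and anterior patterning genes, 3 were higher at 48 h, led by the WNT inhibitor gene Dkk1 (6.09, SE 0.23), and 4 lower, led by Sox2 (-2.74, SE 0.20) and Otx2 (-2.50, SE 0.15). With siOct4, 1 of 10 was called lower, 2 with the block: Dkk1 (-1.09, SE 0.24, adjusted p = 0.027). It lost its call when pair 1, 2, 4, 5 or 6 was left out and when consecutive libraries were averaged. The endocytic receptor genes of visceral endoderm, which include Cubn, were higher in 7 of 9 at 48 h, with Dab2 (8.35, SE 0.23), Cubn (8.10, SE 0.27), Amn (5.62, SE 0.23) and Lrp2 (5.22, SE 0.31) in the lead, and 2 of 9 were lower with siOct4, 3 with the block, Cubn and Amn (-1.43, SE 0.30), or 1 without pair 5 or 6 and 0 with the averaging. The PrE factors were higher in 11 of 12 at 48 h, led by Srgn (9.11, SE 0.31), a proteoglycan core gene. With siOct4, Srgn (-1.31, SE 0.19) and Foxq1 (-0.84, SE 0.18) were called lower, 2 of 11, or 8 of 11 with the block, with a list median of -0.79 beside -0.12 over all genes tested. The count was 1 without pair 1, 2, 4, 5 or 6, 5 with the length trend removed and 0 with the averaging. With both the averaging and the block it was 8, beside 3 for the endocytic genes and 1 for the HESX1 list. The averaging alone called 0 genes of the whole siRNA series. Of the pluripotency factors, 8 of 12 were lower at 48 h, led by Nanog (-3.33, SE 0.22), and Tbx3 was higher (1.12, SE 0.19), a call lost without replicate 1 or replicate 2. With siOct4 1 of 9 was called lower, Pou5f1 itself, or 4 with the block, 3 with rescaling or the length trend removed, 2 without pair 3 and 0 with the averaging. With both the averaging and the block the count was 3. Of 13 measured fibroblast markers, 1 was higher at 48 h, Twist1 (1.22, SE 0.17). With siOct4, limma called 0 of 6 fibroblast markers, 0 of 4 calcitonin system genes and 0 of 10 F-BAR and synthase partners, with or without the block, and 0 of each were at an unadjusted p under 0.05.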

How the data were processed

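RNA-seq was made in 35 libraries, 23 of an induction series and 12 of an siRNA series, grouped by the sample titles. The authors mapped the reads with STAR (mm10), used RSEM for gene quantification and deposited TPM values; tool versions and the annotation are not given in the sources used here. Libraries were stranded. The siRNA table held 6275 genes the authors called GATA6-responsive, with their group means, which were not used for any value, and text classes of response, which were not used. Depth is unknown, so precision is read from the spread between libraries; the study calls them independent replicates.

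Of 44915 rows of the induction table, 60 symbols on more than 1 row were reduced to the row with the highest mean. Values were used as log2(TPM + 1), so that fold changes of low genes are understated. Tested genes reached a group mean of 1 TPM or more (15057 and 6264). The test was limma 3.58.1 in R 4.3.3 (lmFit, eBayes with trend and robust), one fit per table with group as the term, and adjusted by Benjamini-Hochberg. Calls needed an adjusted p under 0.05 and an absolute log2 change above 1 (induction) or 0.5 (siRNA). The fits were checked on simulated data. Tests had been laid out for either counts or normalised values before the unit was known to be TPM. Tables and plots used Python 3.11.15 with pandas 2.3.3, numpy 2.4.6 and matplotlib 3.10.9. Gene spans are from GENCODE M21.

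Same-numbered siCTL and siOct4 libraries, which the study describes as independent knockdowns, deviated together from their group means in all 6 pairs (r from 0.236 to 0.707, mean 0.33, against a mean of -0.06 for other numbers), so the numbers were taken as pairs and blocked values are given where they move a count. Other numbers reached 0.459, however, and consecutive libraries of a group also deviated together (mean 0.46). The check therefore cannot tell pairs by number from sets of consecutive libraries, and the 6 pairs may hold fewer independent experiments.

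The 5 genes and the lists were chosen with earlier results of these data known. Genes named from a list were the up to 4 largest changes past the threshold, those closest in pattern the 3 highest correlations, those just outside the choice the next 3 meeting its criteria and any larger fall that failed one. Beyond this rule, Adm, Calcrl, Nos3 and Vps25 were named after their values were seen. The promoter motifs were settled with the sequences in view, and every word searched is given. Alternatives were the replicate block, median-of-ratios rescaling, no filter, a stricter filter (5 TPM), a smaller pseudocount (0.1), no fold minimum, an adjusted p under 0.01, only the groups compared, and each replicate left out; those added after seeing the data were removal of a gene length trend, averaging of consecutive siRNA libraries with and without the block, and the omission of a 72 h library.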

Additional observations from a re-analysis of the deposited data

Results flagged for a closer look

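In 14 sets of 6 siRNA values (the 5 genes, Pou5f1 and Gata6 in both groups), 2 had a library whose gap to the others exceeded Dixon's 95% limit; chance gives about 1 in 20, or 0.7 here. Ramp2 in siOct4 library 2 stood at 1.72 on the log2(TPM + 1) scale (2.29 TPM), under the 2.65 to 2.94 of the other siOct4 libraries. Gata6 in siCTL library 4 stood at 7.64 (198.5 TPM), above the 6.55 to 6.82 of the other siCTL libraries; the same library held the highest Myo7a and Clic5 values of its group.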

How the results depend on the processing

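Among the 5 genes, each of the 10 induction comparisons kept its number of calls within 1.5 times under every alternative but 1: at 16 h it was 2, and between 1 and 2 when a replicate was left out, 1 without replicate 1. With so few genes this limit lets a change of 1 call pass. Under some alternative the count was 3 in place of 2 at 24 h and 3 or 5 in place of 4 at 168 h. It was 2 in place of 3 for 168 h against 48 h. For XEN cells it was 5 in place of 4 against 0 h and 4 in place of 3 against 168 h. Uncalled changes at 16 and 24 h crossed 0 when a replicate was left out: Myo7a at 16 h ranged from -0.22 to 0.01 and at 24 h from -0.11 to 0.06, and Hesx1 at 16 h from -0.24 to 0.20. Under the siRNA contrast, the replicate block gave 385 genes lower and 152 higher against 108 and 59 without it, and all 167 genes called without the block were called with it. Median-of-ratios rescaling, which moved the median of all genes from -0.12 to 0.01, gave 153 lower and 144 higher, an adjusted p under 0.01 gave 33 and 28, and removal of the gene length trend 192 and 169. With each pair left out, the counts were 39 to 177 lower and 27 to 63 higher, 177 and 63 without replicate 3, while every other omission left at most 46 lower. With consecutive libraries averaged, limma called 0 lower and 0 higher (437 genes at an unadjusted p under 0.05), and with the replicate block as well 154 and 71. The cause of these shifts was not tested. Libraries 1 and 2, 3 and 4, and 5 and 6 of a group had deviations correlated at 0.46 on average, against -0.35 for other libraries of a group. In the induction series the samples share only a number (mean correlation 0.03 for the same number, -0.02 for others), and the replicate block changed no call of the 5 genes there. Depth is unknown.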

Other observations

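Within the CLIC family, Clic3 followed Clic5 closely over induction (r = 0.98), Clic1 rose to 332.9 TPM at 168 h and Clic4 stayed between means of 62.0 TPM at 0 h and 101.8 TPM at 168 h. Clic6 measured 11.5 ± 0.9 TPM at 48 h and ranged from 5.46 to 48.2 TPM among the 3 libraries at 168 h.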
